A study of Rattus norvegicus with 9 samples.

Results

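The lysosome genes of cultured rat heart muscle cells are described here across 3 levels of Yap1, a coactivator of transcription that Hippo signalling holds back. Members were the genes whose pathway annotation in the deposited table names the lysosome, 123 of 18629 genes. They were sorted by symbol and known role into 14 cathepsins, 41 other hydrolases with their soluble partners, 22 membrane proteins, 10 proton pump subunits and 31 sorting receptors, tag enzymes and coat proteins. The 31 sorting and coat members act at the Golgi and on endosomes on the way to the lysosome, so the annotation is wider than the organelle itself. The other 5 members had no role assigned, and 3 of them were near copies of other members, M6pr among these.

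Primary cardiomyocytes from Sprague-Dawley rats aged 1 to 2 days carried 1 of 3 adenoviruses, namely Ad-Yap1 WT for overexpression, Ad-Yap1 shRNA for knockdown or Ad-GFP as the control, with 3 libraries each. All 9 libraries, the GFP ones included, came from cells cultured for 14 h in 1% serum with 1 g/L glucose and then kept for 48 h under 100 nM insulin and 33 mM glucose. The labels name no control hairpin, so effects of a hairpin vector as such and of lower Yap1 cannot be told apart. They also do not say whether the 3 libraries of a group came from separate isolations, and p-values then measure only the spread between these libraries, which may be technical.

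A lysosome takes up material from outside the cell and from autophagy and breaks it down with acid hydrolases. The proton pump (V-ATPase) keeps its inside acid, membrane proteins shield the membrane and carry products out, and mannose 6-phosphate receptors with clathrin coats bring new enzymes from the Golgi. In mammals many of these genes share a short promoter element, the CLEAR element, read by TFEB and its relatives TFE3, MITF and TFEC. In heart muscle this system clears worn mitochondria and glycogen, and its inherited defects, such as Pompe disease (GAA), Fabry disease (GLA) and Danon disease (LAMP2), damage the heart.

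The promoters are shown first, with the CLEAR core marked, for members of different response. The letters searched were GTCACGTG, the core of the CLEAR element, on both strands, in the RefSeq promoter windows of build GRCr8 from 250 bases before to 50 bases after the start of each gene. These letters contain the shorter E-box CACGTG, which was not counted or marked on its own, and a palindromic GTCACGTGAC was counted as 1 stretch. Of 98 members with a promoter window, 15 held it (15.3%), against 2.09% of all 27457 windows and 2.59% of the 19005 windows of protein-coding genes. A match is a stretch of letters and not a measured binding site. Of the 15, 9 were lower in Yap1 shRNA than in GFP libraries, 2 were higher and 4 did not pass the test, where 63.1% of all tested members were lower and 20.7% higher, and 39.1% of all genes tested were lower and 39.2% higher. Against GFP, Yap1 WT had 3 of the 15 higher, 4 lower and 8 that did not pass, where 19.8% of tested members were higher and 36.9% lower, and 32.0% of all genes were higher and 31.8% lower. These counts are a description and show nothing particular to members with the element. Whole windows follow for 3 members with different responses to the shRNA, each 5′ to 3′ on the gene's strand with every match in capitals. Idua, which was lower, lies on the minus strand at chr14:1190879-1191178. Lamp1, which did not pass, lies on the minus strand at chr16:83075014-83075313 and has 4 matches. Atp6v0d1, which was higher, lies on the minus strand at chr19:50357199-50357498.
Idua: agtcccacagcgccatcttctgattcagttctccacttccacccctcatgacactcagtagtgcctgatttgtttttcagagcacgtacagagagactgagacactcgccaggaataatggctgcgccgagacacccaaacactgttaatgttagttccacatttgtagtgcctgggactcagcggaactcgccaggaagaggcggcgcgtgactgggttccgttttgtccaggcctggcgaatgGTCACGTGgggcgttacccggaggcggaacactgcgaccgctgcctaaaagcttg
Lamp1: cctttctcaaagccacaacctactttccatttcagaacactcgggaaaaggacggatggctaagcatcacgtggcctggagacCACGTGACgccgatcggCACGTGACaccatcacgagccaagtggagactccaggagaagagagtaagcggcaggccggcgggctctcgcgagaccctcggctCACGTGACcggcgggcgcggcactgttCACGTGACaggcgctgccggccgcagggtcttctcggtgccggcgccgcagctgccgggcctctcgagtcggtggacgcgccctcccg
Atp6v0d1: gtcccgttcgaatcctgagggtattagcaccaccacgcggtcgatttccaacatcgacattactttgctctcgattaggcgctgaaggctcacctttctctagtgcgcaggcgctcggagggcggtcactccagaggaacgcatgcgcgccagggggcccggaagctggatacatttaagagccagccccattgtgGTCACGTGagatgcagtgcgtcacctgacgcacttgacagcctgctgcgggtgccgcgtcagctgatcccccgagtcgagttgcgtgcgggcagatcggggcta
The element with 15 bases on each side, written so that it reads GTCACGTG, is given for 6 further members, chosen after their values were seen. Glb1, Sgsh, Gaa and Igf2r were lower with the shRNA, Mcoln1 did not pass and Gnptg was higher.
Glb1: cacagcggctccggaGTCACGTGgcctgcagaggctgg
Sgsh: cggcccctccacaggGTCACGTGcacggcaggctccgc
Gaa: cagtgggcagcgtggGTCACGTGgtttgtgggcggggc
Igf2r: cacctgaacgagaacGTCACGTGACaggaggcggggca
Mcoln1: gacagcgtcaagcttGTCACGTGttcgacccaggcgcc
Gnptg: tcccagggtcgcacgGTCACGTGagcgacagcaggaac

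Levels are CPM, a gene's reads relative to all assigned reads of its library, after TMM scaling, and levels of different genes are set side by side only as deposited TPM, which is per length. The Yap1 WT libraries held 10960046 to 11497108 assigned reads, the Yap1 shRNA libraries 6103220 to 6357398 and the GFP libraries 14868174 to 15368465. Yap1 itself stood at 559, 812 and 622 CPM in Yap1 WT libraries, at 95.4, 96 and 95.3 CPM in Yap1 shRNA libraries and at 197, 198 and 190 CPM in GFP libraries. Summed over 10 cardiomyocyte markers, the level was 6471 to 9667 CPM in Yap1 WT, 2057 to 2305 CPM in Yap1 shRNA and 31470 to 32350 CPM in GFP libraries, and all 10 were lower in both Yap1 groups than in GFP. The 10 fibroblast markers summed to 12530 to 16940 CPM, 7760 to 8499 CPM and 18810 to 20030 CPM in the same order, with Col1a1 the largest part. Of them, 3 were higher and 5 lower than GFP with Yap1 WT, and 1 (Dcn) was higher and 9 lower with the shRNA. The 12 macrophage markers with a line summed to 114 to 119 CPM, 40.8 to 51.5 CPM and 89 to 111 CPM. Lyz2 alone had means of 66.0, 18.1 and 63.9 CPM there. Of 10 macrophage markers tested, 3 were higher and 1 lower than GFP with Yap1 WT, and 1 (Adgre1) was higher and 6 lower with the shRNA. Over all genes tested, 32.0% were higher and 31.8% lower with Yap1 WT, and 39.2% and 39.1% with the shRNA. The untested C1qb and C1qc had 8 and 4 reads in Yap1 WT, 0 in Yap1 shRNA and 8 and 13 in GFP libraries. The 8 smooth muscle and pericyte markers summed to 3776 to 5159 CPM in Yap1 WT, 3419 to 3827 CPM in Yap1 shRNA and 8785 to 9272 CPM in GFP libraries, and the 9 endothelial markers to 59.4 to 63.6 CPM, 65.5 to 73.0 CPM and 44.1 to 47.3 CPM. In such bulk samples fewer cells of a type and less RNA per cell cannot be told apart, and the part of these shifts in the results below was not tested.

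Every test was edgeR's quasi-likelihood F test with Benjamini-Hochberg adjustment over all 13708 genes that passed the count filter, called at an adjusted p below 0.05. Of the 123 members, 111 were tested. The other 12, among them Ctse, Lamp3 and Atp6v0d2, had at most 35 reads in any group. A standard error (SE) is that of the log2 fold change.

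Against GFP, most lysosome members were lower with the shRNA, while with Yap1 WT they differed by less and in both directions. In Yap1 shRNA against GFP, 23 members were higher and 70 lower, 83.8% of 111, where 78.3% of all genes tested passed (39.2% higher and 39.1% lower). The median log2 fold change of the members was -0.50, beside -0.012 over all genes tested. In Yap1 WT against GFP, 22 were higher and 41 lower, or 56.8%, where 63.8% of all genes passed (32.0% higher and 31.8% lower), with a member median of -0.053 beside 0.003. That split depended on the scaling, since library size scaling gave 40 higher and 29 lower with a median of 0.082, while log2(TPM + 1) gave 41 higher and 22 lower with a median of 0.12. Those settings moved the median of all genes to 0.14 each, so that members remained 0.056 and 0.021 below it. In Yap1 WT against Yap1 shRNA, 68 were higher and 15 lower, or 74.8%, where 62.5% of all genes passed (31.2% higher and 31.3% lower), with a median of 0.38 beside 0.037. Changes of at least 2-fold that passed the test were few with Yap1 WT, 2 higher and 3 lower than GFP, and more with the shRNA, 3 higher and 20 lower. The share of all genes past 2-fold was not counted. Quartiles over all genes tested were -0.401 and 0.395 with Yap1 WT and -0.702 and 0.749 with the shRNA. The wider spread with the shRNA was therefore not particular to members.

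**Figure D1:**
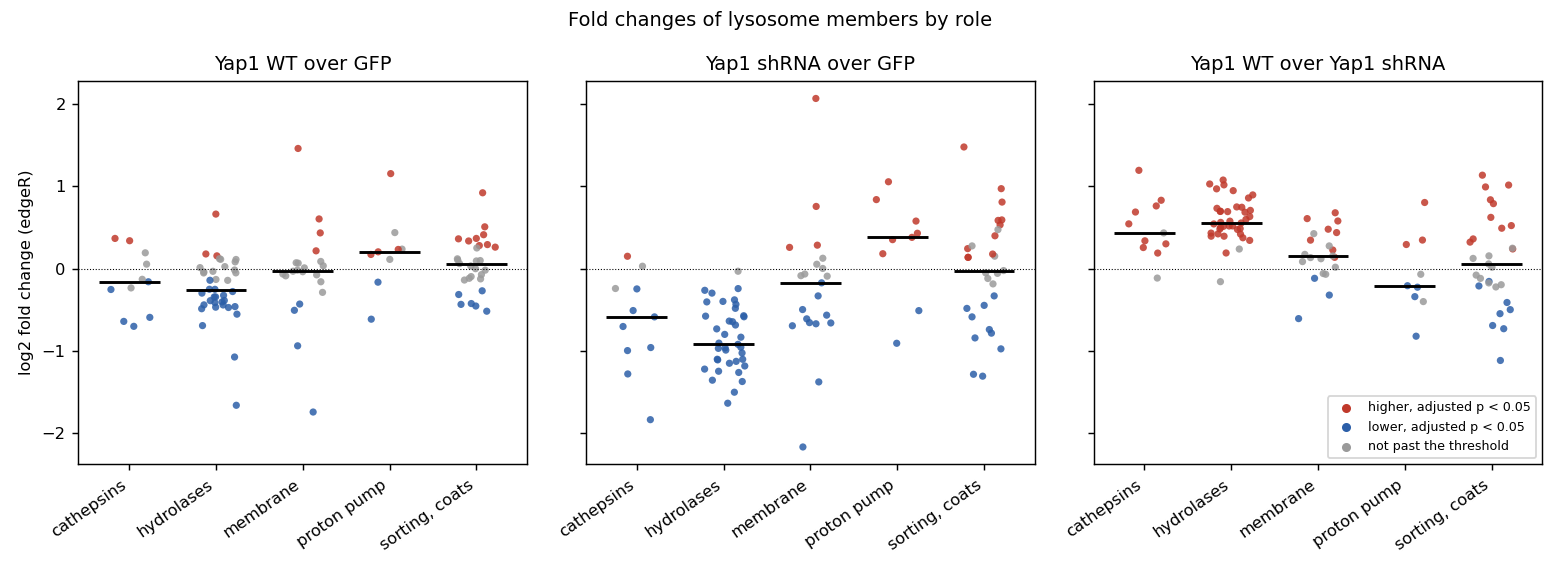
Log2 fold change of each tested member (points) by role in the 3 comparisons, with the median of each role as a bar and colour for members past the threshold. In the middle panel the hydrolases lie below 0 with a median of -0.91 and the proton pump mostly above it with a median of 0.38.

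The hydrolases were the most uniform role. With the shRNA, 37 of 38 tested were lower than GFP and none was higher, with a median log2 fold change of -0.91 and values between -1.64 and -0.032. In all 37 the 3 shRNA libraries lay below the 3 GFP libraries. Such separation was not counted over all genes, of which 39.1% were called lower here, so it marks nothing particular to hydrolases. The count of 37 called lower was 32 on log2(TPM + 1) and stayed at 37 under the other 3 scalings and with a trend in transcript length removed. Yap1 WT had 3 higher and 22 lower than GFP with a median of -0.27, or 9 higher and 16 lower by library size and 9 higher and 11 lower on log2(TPM + 1). Against the shRNA directly, Yap1 WT had 36 higher and none lower, with a median of 0.56. Over all genes, Yap1 WT had 32.0% higher and 31.8% lower than GFP, and 31.2% higher and 31.3% lower than the shRNA. Per length, the 41 members took 0.249 ± 0.00368% of TPM in Yap1 WT, 0.173 ± 0.0067% in Yap1 shRNA and 0.257 ± 0.00152% in GFP libraries (SD, n = 3 each). All lysosome members together took 1.134 ± 0.0168%, 1.023 ± 0.0114% and 1.025 ± 0.0123% of TPM in the same order. On TPM their summed share therefore hardly differed between shRNA and GFP. Of assigned reads, not scaled per length, they took 1.49 ± 0.0141%, 1.178 ± 0.0162% and 1.369 ± 0.0149%, so that share was lower with the shRNA. With the shRNA the cathepsins took 0.199% of TPM against 0.207% in GFP, and the membrane proteins 0.332% against 0.310%. The proton pump took 0.1445% against 0.1126%, and the sorting and coat members 0.168% against 0.133%. These differences depended on the measure. Of assigned reads, the cathepsins took 0.2005% against 0.2406%, and the membrane proteins turned to 0.3019% against 0.3171%. The proton pump took 0.1196% against 0.1153% there, the sorting and coat members 0.3056% against 0.285% and the hydrolases 0.2403% against 0.4016%.

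By substrate, a grouping made after the values were seen, the shRNA had all 9 enzymes of glycosaminoglycan breakdown lower than GFP, 9 of 10 of sphingolipid breakdown, all 6 of glycoprotein and glycogen breakdown and all 13 others. With Yap1 WT the glycosaminoglycan enzymes had 8 of 9 lower and none higher, while the sphingolipid group had 4 lower and 2 higher. Over all genes tested, 39.1% were lower with the shRNA, and 31.8% were lower and 32.0% higher with Yap1 WT.

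Idua, the iduronidase that trims heparan and dermatan sulfate, had 87.8, 85.4 and 86.2 CPM in Yap1 WT libraries, 45.6, 46.9 and 47 CPM in Yap1 shRNA libraries and 117, 118 and 122 CPM in GFP libraries. The groups did not overlap, with the shRNA lowest and GFP highest. The shRNA change was 2.56-fold lower (log2 fold change -1.36, SE 0.053, edgeR adjusted p = 1.14e-10) and that of Yap1 WT 1.38-fold lower (-0.46, SE 0.047, edgeR adjusted p = 2.34e-06). Asah1, the acid ceramidase (NCBI gene 84431, rn6 chromosome 16, 53998604 to 54030006, plus strand), had 120, 109 and 111 CPM in Yap1 WT, 69.7, 82.7 and 78.4 CPM in Yap1 shRNA and 237, 242 and 239 CPM in GFP libraries. Both Yap1 groups stood well below GFP and apart from each other. The change was 2.11-fold lower with Yap1 WT (log2 fold change -1.08, SE 0.061, edgeR adjusted p = 1.03e-08) and 3.11-fold lower with the shRNA (-1.64, SE 0.065, edgeR adjusted p = 1.35e-10).

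Gla, the alpha-galactosidase lost in Fabry disease, was the 1 tested hydrolase that did not pass with the shRNA. It had 30.1, 33.5 and 33.3 CPM in Yap1 WT, 16, 20.6 and 23.4 CPM in Yap1 shRNA and 20.6, 19.7 and 20.9 CPM in GFP libraries. The Yap1 WT libraries lay above both other groups, which overlapped. Against GFP it was 1.58-fold higher with Yap1 WT (log2 fold change 0.66, SE 0.1, edgeR adjusted p = 7.39e-05), and with the shRNA its log2 fold change was -0.032 (SE 0.11, edgeR adjusted p = 0.807, 95% interval -0.28 to 0.22).

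Gaa, which breaks down lysosomal glycogen, had 252, 245 and 252 CPM in Yap1 WT, 188, 199 and 172 CPM in Yap1 shRNA and 240.1, 247 and 250.3 CPM in GFP libraries. Yap1 WT and GFP overlapped and the shRNA libraries were lower, at a log2 fold change of -0.40 (edgeR adjusted p = 2.71e-05). Gaa passed as higher with Yap1 WT by library size (0.16) and on log2(TPM + 1) (0.18). Lipa, the acid lipase of cholesteryl esters, was higher than GFP with Yap1 WT (0.18) and lower with the shRNA (-0.30). The rise of Lipa did not pass without the count filter (0.13), and its fall did not pass on log2(TPM + 1) (-0.072). Psap, the precursor of the saposins that help lipid enzymes, had 932, 909 and 946 CPM in Yap1 WT, 652, 671 and 589.6 CPM in Yap1 shRNA and 998, 1058 and 1019 CPM in GFP libraries. The shRNA libraries were the lowest, by 0.69 on the log2 scale, and the smaller difference of Yap1 WT (-0.14, edgeR adjusted p = 0.0441) turned to 0.021 on log2(TPM + 1). It also did not pass by DESeq2 or RLE (-0.12 each), by library size (-0.007), with the stricter filter (-0.13) or without any 1 GFP library (-0.16 to -0.12) or Yap1 WT replicate 2 (-0.13) or 3 (-0.16).

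Other large falls with the shRNA were those of Ppt2, a thioesterase, by 1.37, and Arsa, the sulfatase of sulfatides, by 1.26 on the log2 scale. Among the changes between the Yap1 groups, Yap1 WT over the shRNA was 1.03 for Ppt2, 1.02 for Gm2a, the activator of ganglioside breakdown, 0.97 for Gusb, the beta-glucuronidase, and 0.95 for Man2b1, the alpha-mannosidase. Gm2a and Man2b1 did not pass in Yap1 WT against GFP (-0.13 and -0.017), although Gm2a passed as lower without the count filter (-0.18) and without Yap1 WT replicate 1 (-0.20), while Ppt1, a thioesterase that removes fatty acids from proteins, and Sgsh, the heparan sulfamidase, were lower there (-0.69 and -0.49).

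**Figure D2:**
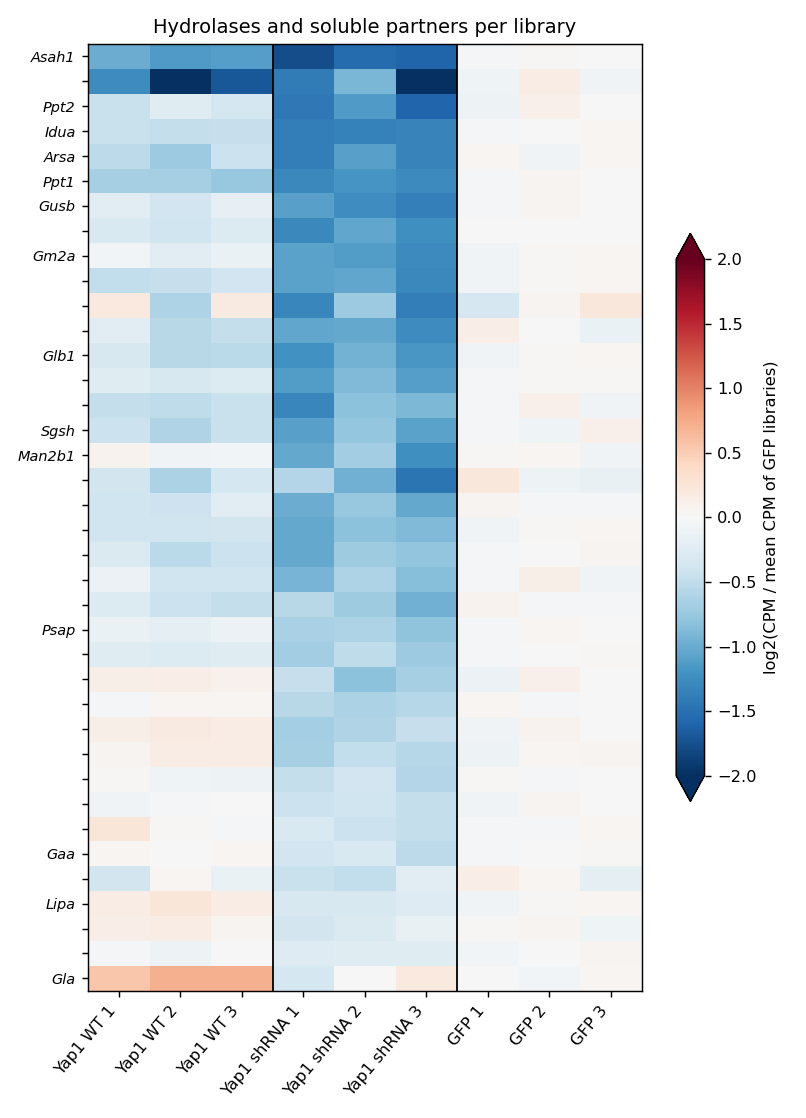
Level of each tested hydrolase or soluble partner in each library as log2 of its CPM over the mean of the GFP libraries, ordered by the shRNA change, with names for the genes described in the text and values beyond 2 shown in the end colours. The Yap1 shRNA columns are lower than GFP in nearly every line, while Gla at the bottom is higher in the Yap1 WT columns, at 30.1 to 33.5 CPM.

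Of the cathepsins, the lysosomal proteases, the shRNA had 8 of 11 tested lower than GFP and 1 higher, with a median log2 fold change of -0.59. Yap1 WT had 5 lower and 2 higher with a median of -0.16, which was 0.004 with 3 higher and 3 lower on log2(TPM + 1). Yap1 WT over the shRNA gave 9 higher and none lower. Over all genes tested, 39.2% were higher and 39.1% lower with the shRNA, and 32.0% and 31.8% with Yap1 WT. Between the Yap1 groups those shares were 31.2% and 31.3%.

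Ctsh, an aminopeptidase (NCBI gene 25425, rn6 chromosome 8, 97439155 to 97458293, plus strand), had 101, 92.2 and 104 CPM in Yap1 WT, 39, 47.9 and 42.8 CPM in Yap1 shRNA and 141, 161 and 161 CPM in GFP libraries. The groups were separate, with the shRNA lowest. It was 1.56-fold lower with Yap1 WT and 3.57-fold lower with the shRNA than GFP (log2 fold changes -0.64 and -1.84, SE 0.073 and 0.084, edgeR adjusted p = 6.27e-06 and 4.13e-10). Ctsc, which activates the serine proteases of immune cells, and Ctsk, a collagen-degrading protease, were lower with the shRNA by 1.28 and 0.96 on the log2 scale. Ctss, a protease of antigen-presenting cells, was lower by 1.00 at 1.45 to 3.21 CPM in the shRNA libraries and 3.68 to 4.67 CPM in GFP libraries.

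Ctsd, the main aspartic protease, had 461, 497 and 493 CPM in Yap1 WT, 407, 412 and 397 CPM in Yap1 shRNA and 541, 597 and 592 CPM in GFP libraries. The groups were again separate in the same order. Its log2 fold change was -0.51 with the shRNA and -0.25 with Yap1 WT, the second of which did not pass by library size (-0.12) or on log2(TPM + 1) (-0.09). Ctsa, which also protects beta-galactosidase and neuraminidase, was lower with the shRNA by 0.70, and its Yap1 WT difference of -0.16 did not pass by library size (-0.024) and became 0.004 on log2(TPM + 1). Ctsf was the 1 cathepsin with a larger fall in Yap1 WT (-0.70) than in shRNA (-0.59), and the Yap1 groups did not differ past the threshold (-0.12, SE 0.075, edgeR adjusted p = 0.202), except on log2(TPM + 1) (-0.16).

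Ctsb and Ctsl, the most abundant cysteine cathepsins at 532 and 486 TPM in GFP libraries, went the other way. Ctsb had 819.8, 919 and 859 CPM in Yap1 WT, 719, 801 and 759.8 CPM in Yap1 shRNA and 665, 697 and 692 CPM in GFP libraries. All libraries of both Yap1 groups lay above those of GFP. The log2 fold change was 0.34 with Yap1 WT (SE 0.059, edgeR adjusted p = 0.000255) and 0.15 with the shRNA (SE 0.06, edgeR adjusted p = 0.0344), and the shRNA value did not pass under upper quartile scaling (0.01), without the count filter (0.07) or without any 1 library other than Yap1 WT replicate 2 and shRNA replicate 1 (0.11 to 0.16). Ctsl was higher with Yap1 WT by 0.37 and stood at 0.029 with the shRNA, which did not pass except on log2(TPM + 1) (0.24). Ctsz was lower with the shRNA by 0.25, which did not pass on log2(TPM + 1) (-0.039), by DESeq2 (-0.22), with the length trend removed (-0.14) or without shRNA replicate 3 (-0.18), and Ctso, at 2.08 to 3.71 CPM in shRNA libraries, passed in none of the 3 comparisons.

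**Figure D3:**
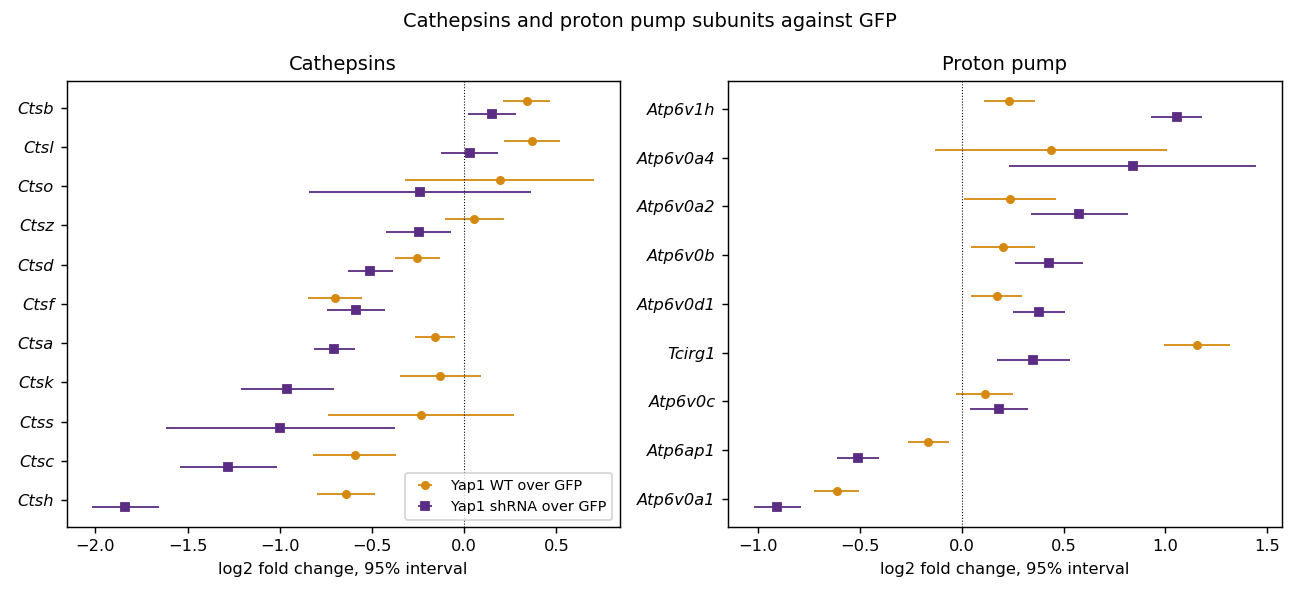
Log2 fold change against GFP with its 95% interval for the tested cathepsins (left) and proton pump subunits (right), Yap1 WT as circles and Yap1 shRNA as squares. Ctsb lies above 0 in both comparisons while Ctsh is at -1.84 with the shRNA, and Atp6v1h is at 1.06 with the shRNA while Atp6v0a1 is at -0.91.

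Most proton pump subunits within the annotation moved against the hydrolases with the shRNA. There, 7 of 9 tested were higher than GFP and 2 (Atp6v0a1 and Atp6ap1) lower, with a median log2 fold change of 0.38. Pump subunits outside the annotation, given below, split more evenly. Yap1 WT had 4 higher and 2 lower with a median of 0.20. Yap1 WT over the shRNA gave 3 higher and 4 lower, or 3 higher and 1 lower under library size and upper quartile scaling. Over all genes tested, 39.2% were higher and 39.1% lower with the shRNA, and 32.0% and 31.8% with Yap1 WT. Between the Yap1 groups those shares were 31.2% and 31.3%.

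Atp6v1h, the regulatory H subunit of the outer V1 part (NCBI gene 297797, rn6 chromosome 5, 14262352 to 14367898, minus strand), had 64.7, 71.1 and 66 CPM in Yap1 WT, 115, 121 and 121 CPM in Yap1 shRNA and 54.7, 57.1 and 59.7 CPM in GFP libraries. The shRNA libraries stood far above the rest, and Yap1 WT lay just above GFP without overlap. It was 1.18-fold higher with Yap1 WT and 2.08-fold higher with the shRNA than GFP (log2 fold changes 0.23 and 1.06, SE 0.058 and 0.059, edgeR adjusted p = 0.00342 and 2.35e-09).

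The a subunits of the membrane part V0, which set where a pump goes, differed among themselves. Atp6v0a1 had 127, 115 and 118 CPM in Yap1 WT, 98.8, 95.3 and 99.7 CPM in Yap1 shRNA and 184, 184 and 183 CPM in GFP libraries. Both Yap1 groups were below GFP, by 0.62 with Yap1 WT and by 0.91 with the shRNA on the log2 scale. Tcirg1, the a3 subunit known from osteoclasts, had 55.4, 61.1 and 61.4 CPM in Yap1 WT, 35.2, 36.3 and 30.4 CPM in Yap1 shRNA and 25.7, 27.9 and 26.1 CPM in GFP libraries. Here both Yap1 groups lay above GFP, with Yap1 WT highest. Tcirg1 was 2.23-fold higher with Yap1 WT (log2 fold change 1.16, SE 0.074, edgeR adjusted p = 3.18e-08) and 1.28-fold higher with the shRNA (0.35, SE 0.083, edgeR adjusted p = 0.0017). Atp6v0a2, the Golgi and endosome form, was higher with the shRNA by 0.58 and stood at 0.24 with Yap1 WT (edgeR adjusted p = 0.0622). The Yap1 WT value passed under RLE (0.26) and library size scaling (0.37), on log2(TPM + 1) (0.37), with the 6 compared libraries alone (0.25) and without GFP replicate 2 (0.30), shRNA replicate 1 (0.24) or shRNA replicate 2 (0.24). Atp6v0a4, a kidney form, stood at 2.05 to 2.32 CPM in Yap1 WT, at 2.08 to 4.22 CPM in Yap1 shRNA and at 1.35 to 1.90 CPM in GFP libraries, and its rise with the shRNA (0.84) did not pass without shRNA replicate 2 (0.50) or GFP replicate 2 (0.71).

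Of the proton channel ring and its base, Atp6v0d1 had 199, 225 and 211 CPM in Yap1 WT, 243, 245 and 245 CPM in Yap1 shRNA and 177, 187 and 198 CPM in GFP libraries. The shRNA libraries were highest by 0.38 over GFP, and the Yap1 WT rise of 0.17 did not pass without the count filter (0.13) or without GFP replicate 1 (0.13) or 2 (0.17) or Yap1 WT replicate 2 (0.12) or 3 (0.17). Atp6v0b was higher by 0.43 with the shRNA and by 0.20 with Yap1 WT, the second of which did not pass without the count filter (0.16), after thinning (0.19) or without Yap1 WT replicate 2 (0.17) or 3 (0.21) or GFP replicate 1 (0.16) or 2 (0.21). Atp6v0c, the most abundant subunit at 541 TPM in GFP libraries, was higher with the shRNA by 0.18 with overlapping groups, a call lost under upper quartile scaling (0.041), without the count filter (0.10) and without GFP replicate 1 (0.13) or 2 (0.17) or shRNA replicate 2 (0.13) or 3 (0.17). Atp6ap1, an accessory subunit of assembly, was lower with the shRNA by 0.51, and its fall with Yap1 WT (-0.17) did not pass by library size (-0.029) or on log2(TPM + 1) (-0.001).

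A list of 15 pump subunits outside the annotation held 12 tested genes, of which 6 were higher and 5 lower with the shRNA, and 6 higher and 3 lower with Yap1 WT, than GFP. The shares over all genes were 39.2% higher and 39.1% lower with the shRNA, and 32.0% and 31.8% with Yap1 WT. Atp6v1d, the rotor stalk, was higher by 0.53 with Yap1 WT and by 0.85 with the shRNA. Atp6v1b2, the B subunit of most tissues, was lower by 0.58 in Yap1 WT than in the shRNA. Atp6v1g2, the G form known from brain, had 4.55, 3.34 and 3.93 CPM in Yap1 WT, 1.92, 1.52 and 1.77 CPM in Yap1 shRNA and 16.4, 16.9 and 19.4 CPM in GFP libraries. It was far below GFP in both Yap1 groups, at log2 fold changes of -2.15 and -3.33, the second of which was -2.57 on log2(TPM + 1). Atp6v0e2 was lower as well, by 1.20 with Yap1 WT and by 1.62 with the shRNA.

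Membrane proteins were less uniform. The shRNA had 4 of 21 tested higher and 11 lower than GFP with a median log2 fold change of -0.17, or 8 higher and 8 lower with a median of 0.038 on log2(TPM + 1). Yap1 WT had 4 higher and 4 lower with a median of -0.032, which was 0.10 by library size and 0.12 on log2(TPM + 1). Yap1 WT over the shRNA gave 8 higher and 3 lower. Fewer passed than over all genes tested, with 38.1% beside 63.8% for Yap1 WT, 71.4% beside 78.3% for the shRNA and 52.4% beside 62.5% between them. With the shRNA, 39.2% of all genes were higher and 39.1% lower.

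The coat glycoproteins Lamp1 and Lamp2 line the membrane. Lamp1 had 801, 841 and 808 CPM in Yap1 WT, 735, 762 and 731 CPM in Yap1 shRNA and 745, 794 and 793 CPM in GFP libraries. The shRNA and GFP libraries overlapped, and Yap1 WT lay just above both. Its log2 fold change was 0.071 with Yap1 WT (95% interval -0.039 to 0.18) and -0.066 with the shRNA (95% interval -0.18 to 0.045), and neither passed. Lamp2 stood at 0.034 with Yap1 WT and -0.086 with the shRNA, and Cd63, a tetraspanin of late endosomes and the most abundant member at 1044 TPM in GFP libraries, at 0.087 and 0.002, also without passing. These calls depended on the scaling. With Yap1 WT, Lamp1, Lamp2 and Cd63 passed as higher by library size (0.21, 0.17 and 0.22) and on log2(TPM + 1) (0.24, 0.24 and 0.26). With the shRNA, all 3 passed as lower under upper quartile scaling (-0.21, -0.23 and -0.14), while Lamp1 and Cd63 passed as higher on log2(TPM + 1) (0.15 and 0.21). With the trend in transcript length removed, Cd63 passed as higher with Yap1 WT (0.27) and with the shRNA (0.36), and without the count filter Lamp1 (-0.15) and Lamp2 (-0.17) passed as lower with the shRNA. Without Yap1 WT replicate 1, Lamp2 passed as lower with the shRNA (-0.12). Mcoln1, the calcium channel of the lysosome, stood at 0.066 with Yap1 WT and 0.13 with the shRNA and did not pass, but passed as higher on log2(TPM + 1) (0.21 and 0.32) and, with Yap1 WT, by library size (0.20). Cd164, a sialomucin, stood at -0.066 with Yap1 WT and 0.053 with the shRNA without passing, but passed as higher with the shRNA on log2(TPM + 1) (0.26) and as lower with Yap1 WT with the length trend removed (-0.099). In Yap1 WT against the shRNA, Lamp1 (0.14) and Cd164 (-0.12) passed. The Lamp1 call was lost on log2(TPM + 1) (0.088), with the 6 compared libraries alone (0.14), after thinning to equal depth (0.13) and without Yap1 WT replicate 2 (0.12) or 3 (0.15) or shRNA replicate 1 (0.13) or 3 (0.13). The Cd164 call was lost by library size (-0.003), without the count filter (-0.082), with the 6 compared libraries alone (-0.11), with the length trend removed (-0.038) and without any 1 library other than shRNA replicate 1 (-0.12 to -0.096), and it turned to 0.021 under upper quartile scaling.

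Transporters gave the largest changes of tested members against GFP. Abcb9, a peptide pump, had 4.06, 2.05 and 3.08 CPM in Yap1 WT, 2.24, 1.86 and 2.74 CPM in Yap1 shRNA and 11.3, 8.86 and 10.7 CPM in GFP libraries. Both Yap1 groups were far below GFP and overlapped each other. It was 3.35-fold lower with Yap1 WT and 4.50-fold lower with the shRNA (log2 fold changes -1.74 and -2.17, SE 0.21 and 0.25, edgeR adjusted p = 8.36e-06 and 2.76e-06), and -1.12 and -1.32 on log2(TPM + 1). Abca2, a lipid transporter, was also lower, by 0.94 with Yap1 WT and by 1.38 with the shRNA. Slc11a1, a metal ion transporter known from macrophages, had 6.12, 9.92 and 8.12 CPM in Yap1 WT, 13.6, 10.8 and 12.4 CPM in Yap1 shRNA and 2.91, 3.25 and 2.58 CPM in GFP libraries. It was highest in the shRNA libraries, 4.20-fold above GFP (log2 fold change 2.07, SE 0.2, edgeR adjusted p = 4.33e-07), and 2.75-fold above GFP with Yap1 WT. Of the 10 macrophage markers tested, 6 were lower and 1, Adgre1, was 2.03-fold higher with the shRNA than GFP. Of all genes tested, 39.1% were lower and 39.2% higher. Whether macrophage content had a part in the Slc11a1 change was not tested.

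Slc11a2, the iron transporter of endosomes, was higher with Yap1 WT by 0.60 and with the shRNA by 0.26, the second of which did not pass under upper quartile scaling (0.12). Npc1, which exports cholesterol, was higher by 0.22 and by 0.29, the second of which did not pass under upper quartile scaling (0.15), nor the first after thinning to equal depth (0.16). Litaf, an adaptor on late endosomes, had 252, 261 and 263 CPM in Yap1 WT, 316, 331 and 325 CPM in Yap1 shRNA and 189, 182 and 204 CPM in GFP libraries. Its groups were separate, with the shRNA highest, at log2 fold changes of 0.43 and 0.76. Falls were seen for Laptm4a, a small transmembrane protein, by 0.43 with Yap1 WT and by 0.66 with the shRNA, and for Mfsd8, by 0.51 and by 0.66. Scarb2, a membrane receptor for a hydrolase, Cd68, a macrophage glycoprotein, Ctns, the cystine exporter, and Entpd4 did not pass with Yap1 WT and were lower with the shRNA, by 0.70, 0.67, 0.61 and 0.50 on the log2 scale.

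Sorting receptors and tag enzymes, which mark hydrolases with mannose 6-phosphate and carry them, had 4 of 6 lower and 1 higher with the shRNA than GFP, and 3 higher and 1 lower with Yap1 WT. All genes tested had 39.1% lower and 39.2% higher with the shRNA, and 32.0% higher and 31.8% lower with Yap1 WT. Igf2r, the large mannose 6-phosphate receptor, had 1074, 849 and 960.1 CPM in Yap1 WT, 501, 415 and 396 CPM in Yap1 shRNA and 863, 760.0 and 731 CPM in GFP libraries. The shRNA libraries lay below all others, and Yap1 WT and GFP overlapped. It was 1.79-fold lower with the shRNA (log2 fold change -0.84, SE 0.1, edgeR adjusted p = 5.27e-06) and 2.20-fold higher in Yap1 WT than in the shRNA (1.14, SE 0.1, edgeR adjusted p = 7.94e-07). Its rise with Yap1 WT over GFP (0.29, edgeR adjusted p = 0.0213) did not pass without Yap1 WT replicate 1 (0.18) or 3 (0.29) or GFP replicate 2 (0.27) or 3 (0.24).

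Gnptab, which makes the mannose 6-phosphate tag, had 111, 109 and 112 CPM in Yap1 WT, 59.5, 51.8 and 55.2 CPM in Yap1 shRNA and 78.2, 80 and 74.9 CPM in GFP libraries. GFP lay between the Yap1 groups without overlap. The log2 fold change was 0.51 with Yap1 WT (SE 0.056, edgeR adjusted p = 4.2e-06) and -0.48 with the shRNA (SE 0.062, edgeR adjusted p = 8.32e-06), and 0.99 between them. Sort1, the sortilin receptor, had 135, 107 and 124 CPM in Yap1 WT, 71.4, 67.8 and 71.8 CPM in Yap1 shRNA and 180.4, 170.0 and 173 CPM in GFP libraries. It was lower in both Yap1 groups, by 0.52 with Yap1 WT and by 1.31 with the shRNA.

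M6pr, the small mannose 6-phosphate receptor, shares near-identical sequence with LOC100909548, and the split of reads between both lines varied from library to library. Alone, M6pr had 65.3, 77.1 and 130.2 CPM in Yap1 WT, 100.0, 96.2 and 122 CPM in Yap1 shRNA and 102, 98 and 29.4 CPM in GFP libraries, and the line passed no test. Summed with its copy, the level was 171, 165 and 178 CPM in Yap1 WT, 188, 183 and 167 CPM in Yap1 shRNA and 121, 119 and 133 CPM in GFP libraries. The summed levels of both Yap1 groups lay above GFP. Refitted on the sums, a step added after seeing the data, M6pr was 1.38-fold higher with Yap1 WT (log2 fold change 0.47, SE 0.061, edgeR adjusted p = 2.21e-05) and 1.44-fold higher with the shRNA (0.53, SE 0.063, edgeR adjusted p = 4.22e-06).

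Clathrin and its adaptors, which bud carriers from the Golgi and endosomes, had 9 of 19 tested higher and 6 lower with the shRNA than GFP. With Yap1 WT, 5 were higher and 4 lower. Of all genes tested, 39.2% were higher and 39.1% lower with the shRNA, and 32.0% and 31.8% with Yap1 WT. The direction of the whole sorting and coat role against GFP under the shRNA depended on the scaling, with a median of -0.024 over 29 tested, 0.17 on log2(TPM + 1) and -0.16 under upper quartile scaling. Ap1g1, the gamma subunit of the Golgi adaptor AP-1 (NCBI gene 171494, rn6 chromosome 19, 41805252 to 41860076, minus strand), had 74.8, 72.2 and 68.5 CPM in Yap1 WT, 170.2, 155 and 143 CPM in Yap1 shRNA and 57.1, 56.2 and 54.4 CPM in GFP libraries. The shRNA libraries were the highest by a wide margin. Ap1g1 was 1.29-fold higher with Yap1 WT and 2.79-fold higher with the shRNA than GFP (log2 fold changes 0.36 and 1.48, SE 0.068 each, edgeR adjusted p = 0.000427 and 4.18e-10).

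Cltc, the clathrin heavy chain, had 593, 589.6 and 564 CPM in Yap1 WT, 932, 795 and 826 CPM in Yap1 shRNA and 509, 469.5 and 479 CPM in GFP libraries. Its groups were separate, with the shRNA highest, at log2 fold changes of 0.26 and 0.81. Clta, a light chain, and Ap3b1, of the adaptor to lysosome-related organelles, were higher with the shRNA by 0.59 and by 0.97. Within AP-1 the small subunits differed, since Ap1s3 was lower with the shRNA by 1.29 and Ap1s1 higher by 0.24. The rise of Ap1s1 with the shRNA did not pass under upper quartile scaling (0.10), and the Yap1 WT difference of Ap1s3 (-0.27) did not pass by library size (-0.14) and turned to 0.013 on log2(TPM + 1). Ap1g2, the second gamma form, was higher with Yap1 WT by 0.92, and its shRNA value of 0.40 did not pass after thinning to equal depth (0.21), without the count filter (0.32), with the length trend removed (0.29), under upper quartile scaling (0.26) or without GFP replicate 2 (0.35) or shRNA replicate 2 (0.30) or 3 (0.36). Other adaptors moved by less with Yap1 WT, with Ap3s2, Gga3 and Ap4s1 lower by 0.43, 0.44 and 0.46 and Ap4m1 higher by 0.41 on the log2 scale. The fall of Ap4s1 did not pass by library size (-0.32), on log2(TPM + 1) (-0.27) or with the length trend removed (-0.27).

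**Figure D4:**
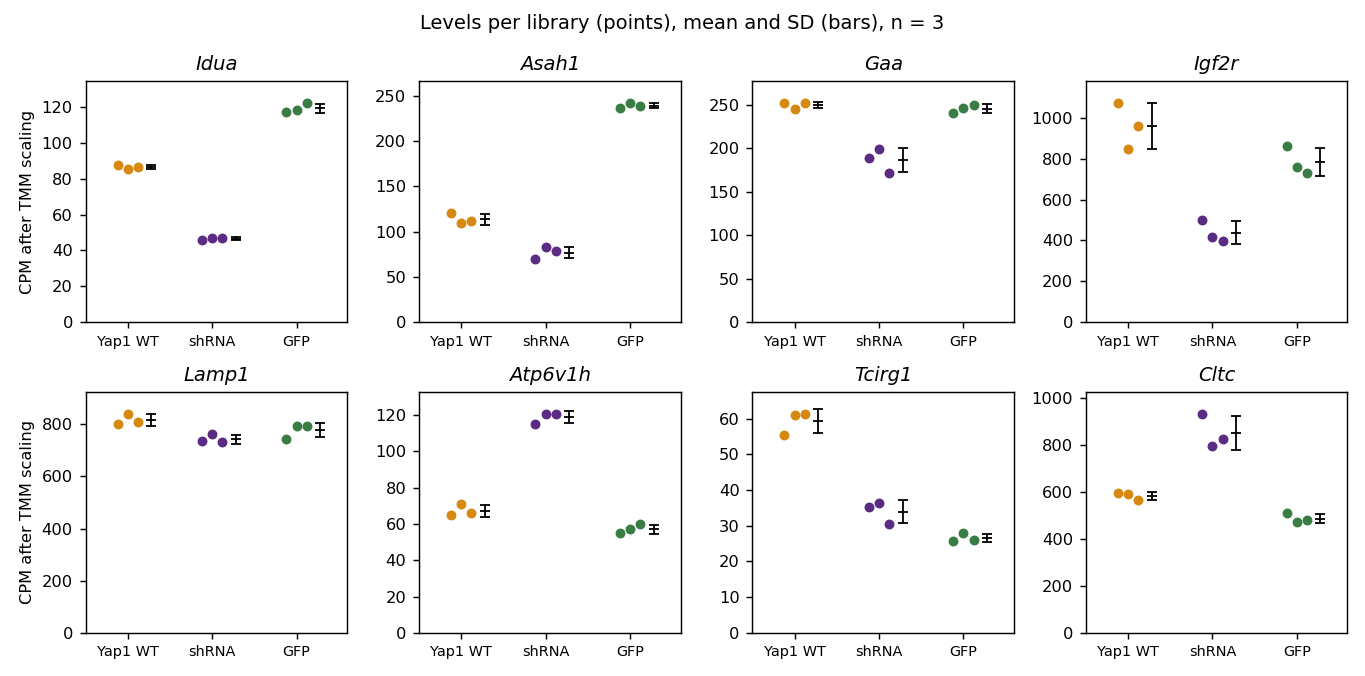
CPM after TMM scaling of 8 members in each library (points), with mean and SD of 3 libraries beside them and axes that start at 0. Idua and Asah1 are lowest in the Yap1 shRNA libraries, Atp6v1h and Cltc highest there, Tcirg1 is highest in the Yap1 WT libraries, and the Lamp1 values of 731 to 841 CPM lie close together in the 3 groups.

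The transcription factors that read the CLEAR element were all tested. With the shRNA, 4 of 4 were higher than GFP (3 of 4 under upper quartile scaling, where Mitf did not pass at 0.17), and with Yap1 WT 2 were higher and 2 lower. Over all genes tested, 39.2% were higher with the shRNA, and 32.0% were higher and 31.8% lower with Yap1 WT. Tfeb had 24.1, 28.5 and 26.4 CPM in Yap1 WT, 45.7, 47.4 and 45.3 CPM in Yap1 shRNA and 32.7, 33.6 and 35 CPM in GFP libraries. GFP lay between the Yap1 groups without overlap. Its log2 fold change was -0.36 with Yap1 WT (SE 0.072, edgeR adjusted p = 0.000725) and 0.45 with the shRNA (SE 0.073, edgeR adjusted p = 7.92e-05). Mitf was lower with Yap1 WT (-0.44), a call lost on log2(TPM + 1) (-0.23), and Tfe3 was higher by 0.34 with Yap1 WT and by 0.59 with the shRNA. Tfec had 14.9, 14.6 and 13.9 CPM in Yap1 WT, 7.67, 9.11 and 8.86 CPM in Yap1 shRNA and 5.55, 5.62 and 6.25 CPM in GFP libraries, so that it was highest with Yap1 WT and lowest in GFP, at log2 fold changes of 1.32 and 0.56. These are transcript levels, and where the proteins lay in the cell was not measured.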

How the data were processed

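Messenger RNA enriched with oligo(dT) was sequenced on a BGISEQ-500, and the labels do not state whether the library kept strand. The submitters' processing notes name HISAT2, Bowtie2, RSEM 1.3.1, DESeq2 1.4.5 and build rn6 without their roles. Per the file headers, the authors deposited expected counts per gene, which carry no normalization, and TPM, which the authors scaled per length within each library. A further 9 columns of FPKM values were not used, and a second deposited table was not used.

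Expected counts were rounded. One edgeR model (4.0.16, in R 4.3.3) held all 9 libraries, with TMM scaling and filterByExpr. Depth was 6103220 to 15368465 assigned reads per library, and intervals are 95% intervals of the fit. The test was edgeR's two-sided quasi-likelihood F test, adjusted by Benjamini-Hochberg over 13708 genes. The method was tested on simulated data in which far fewer genes changed than passed here, as many up as down. That test therefore says nothing on how the scaling behaved in these data. Other scalings were tried (library size, RLE, upper quartile), as were DESeq2 1.42.0 and limma 3.58.1 on log2(TPM + 1). The count filter was dropped or raised to 5 CPM in 3 libraries, and a fold minimum of 1.5 was set. Further fits used only the 6 libraries of a comparison, a block for replicate number, reads thinned to equal depth, or left out 1 library. Removal of a trend with transcript length and the summing of near copies were added after seeing the data.

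Results for some members are not reported here. The members, roles and other lists were chosen with earlier results of these data known. Named were Yap1, all tested cathepsins and pump subunits and 15 well-known members. In each other role and comparison, up to 4 higher and 4 lower members were added, those with the largest change among called members of at least 5 CPM whose groups did not overlap. Of each other list, up to 3 called genes with the lowest p were named. Promoter sequences are those of RefSeq on GRCr8.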

Additional observations from a re-analysis of the deposited data

How the results depend on the processing

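The 70 falls and 68 rises of members in Yap1 shRNA against GFP and in Yap1 WT against Yap1 shRNA stayed within 1.5 times under every alternative run except the fold minimum of 1.5, which left 30 rises in the second. In Yap1 WT against GFP, library size scaling gave 40 higher and a median log2 fold change of 0.082, and log2(TPM + 1) gave 41 higher, 22 lower and a median of 0.115. With the fold minimum 5 were higher and 9 lower. In Yap1 shRNA against GFP, the median was -0.296 on log2(TPM + 1), upper quartile scaling gave 14 higher with a median of -0.638, and the fold minimum left 9 higher. In Yap1 WT against Yap1 shRNA, library size scaling gave 9 lower with a median of 0.49 and upper quartile scaling 9 lower with 0.514. The median there was 0.296 on log2(TPM + 1) and 0.428 with the length trend removed, and 5 were lower with the fold minimum. The median of all genes moved by over 0.1 in these settings too, to 0.138 and 0.136 in Yap1 WT against GFP (library size, TPM), to 0.156 and -0.152 in Yap1 shRNA against GFP (TPM, upper quartile) and to 0.152 and 0.176 in Yap1 WT against Yap1 shRNA (library size, upper quartile). Other causes were not tested.

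With each library left out in turn, Yap1 WT against GFP had 18 to 24 higher, 37 to 42 lower and a median of -0.089 to -0.037. Yap1 shRNA against GFP had 16 to 23, 67 to 71 and -0.523 to -0.478, and Yap1 WT against Yap1 shRNA had 63 to 70, 12 to 15 and 0.368 to 0.404. Over 276 values of named genes under 20 alternatives, 151 lost a call, 71 gained one and 11 changed direction where at least 1 fit made a call. On log2(TPM + 1) those were Ap1s3 (0.013), Ctsa (0.004), Psap (0.021) and Gpnmb (0.141) in Yap1 WT against GFP and Lamp1 (0.146) and Grn (0.007) in Yap1 shRNA against GFP. Under upper quartile scaling they were Cd63 (-0.138) in Yap1 shRNA against GFP and Cd164 (0.021) in Yap1 WT against Yap1 shRNA. With the length trend removed it was Cstb, at 0.164, 0.265 and -0.101 in the 3 comparisons. Same-numbered libraries did not deviate together, with correlations of -0.031 to 0.094, so the replicate numbers were not taken to pair them. With the replicate block the counts were 23 and 42, 24 and 70, and 70 and 15 (higher and lower, in the order above), and of the named genes Lamp2 gained a call in Yap1 WT against Yap1 shRNA (adjusted p = 0.0396, edgeR). Depth was lowest in the shRNA libraries, which limits members such as Ctso, Ctss and Atp6v0a4, at under 5 CPM there.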

Other observations

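Lysosome genes outside the pathway annotation were also measured, from lists chosen with earlier results known. The nutrient sensing machinery on the lysosome, which controls mTORC1, had 3 of 12 tested higher and 3 lower in Yap1 shRNA than in GFP, and 3 higher and 5 lower in Yap1 WT than in GFP, by edgeR's quasi-likelihood test. Fnip1, the partner of folliculin, had 48.6, 49.3 and 51.7 CPM in Yap1 WT, 133, 117 and 126 CPM in Yap1 shRNA and 33.9, 34.2 and 31.5 CPM in GFP libraries. The shRNA libraries were far above the others, at a log2 fold change over GFP of 1.91 (SE 0.066, edgeR adjusted p = 4.45e-11), and Yap1 WT stood between, at 0.59. Its relative Fnip2 was higher with the shRNA by 0.97. Lamtor2 and Lamtor4, scaffold parts of the Ragulator complex, were lower with the shRNA by 0.84 and by 0.92. Slc38a9, an arginine sensor, was higher in Yap1 WT than in the shRNA by 1.02, and Rragc was lower in Yap1 WT than in GFP (-0.36).

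Of 20 other lysosomal proteins tested, 3 were higher and 10 lower with the shRNA than GFP, or 7 higher and 7 lower on log2(TPM + 1), and 5 were higher and 5 lower with Yap1 WT. For these and the inhibitors below, all genes tested had 39.2% higher and 39.1% lower with the shRNA. With Yap1 WT those shares were 32.0% and 31.8%. Tmem175, an ion channel of the lysosome, and Cln6, a protein of enzyme export, were lower with the shRNA by 1.37 each, and with Yap1 WT by 0.56 and by 0.57. Grn, the progranulin precursor, had 554, 632 and 584 CPM in Yap1 WT, 364, 408 and 351 CPM in Yap1 shRNA and 422, 445 and 433 CPM in GFP libraries. GFP lay between the Yap1 groups, at log2 fold changes of 0.45 for Yap1 WT and -0.21 for the shRNA, and the shRNA value became 0.007 on log2(TPM + 1) and did not pass without shRNA replicate 3 (-0.17). Gpnmb, a glycoprotein known from macrophages, was higher in Yap1 WT than in the shRNA by 0.79. Of the 4 cathepsin inhibitors tested, 2 were higher and 2 lower with the shRNA, and 2 higher and 1 lower with Yap1 WT. Cst3, cystatin C, was lower with the shRNA by 0.62, and Cst6 was higher with Yap1 WT by 2.52, at 4.79 to 7.70 CPM in Yap1 WT and 0.677 to 1.25 CPM in GFP libraries. Cstb was lower with the shRNA (-0.29), a direction that turned to 0.27 with the length trend removed and a call lost on log2(TPM + 1) (-0.082).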
